A study of Mus musculus with 44 samples.

Results

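The genes described here are 10 defence genes of mucosal surfaces, listed by name for the response of a stomach without acid to microbes in its lumen, and they were taken out of 31484 gene names in the deposited counts. They are Pglyrp1, Lcn2, Ltf, Lyz1, Lyz2 and Slpi, whose proteins are secreted, and Duox2, Duoxa2, Nox1 and Nos2, whose proteins make or help to make oxidants. The rule uses their names and no measured value. The members and the gene lists used further on were, however, chosen with earlier results of these data known, so counts over them are no independent test. After genes with low counts were left out, 14901 genes were tested, among them 9 of the 10, and Nox1 was too low to be included. Messenger RNA came from biopsies of gastric corpus of BalbC mice, female by the study's methods and 13 months old. WT mice or mice without the H+/K+ATPase beta subunit (KO), a part of the proton pump that acid secretion needs, received netazepide (NTZ, a gastrin receptor antagonist, labelled yf) or its vehicle polyethylene glycol (PEG). There were 13 KO/PEG and 11 KO/NTZ libraries beside 11 WT/PEG and 9 WT/NTZ libraries, so that the controls had also received the vehicle. The genotype is that of the whole animal, and a biopsy holds all cell types of the corpus wall that were taken with it.

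Levels are given as counts scaled to library size (CPM) after TMM normalization, and the lowest signal taken as real, 3 counts, lay between 0.113 and 0.587 CPM in a library. Totals were between 6065084 and 21945124 estimated counts per library. Atp4b, the gene of the deleted subunit, had 2139 to 5738 CPM in the WT libraries and 2.28 to 40.6 CPM in the KO libraries, so that no library went against its genotype label. Keratins of squamous epithelium (Krt5 and Krt14, together over 2 CPM, a limit set after the data were seen) were present in 18 libraries, 4 of 11 WT/PEG, 7 of 9 WT/NTZ, 2 of 13 KO/PEG and 5 of 11 KO/NTZ, although the tissue is labelled as corpus. One KO/PEG library, numbered 46, stood apart: 14.4% of its counts were mitochondrial, against 2.37% to 11.7% elsewhere in the vehicle groups, and its 6 mucous cell markers summed to 15780 CPM, the lowest of the 44 libraries. By their labels a pair of libraries in WT/PEG, both WT_172, carry the same animal number, and the number 110 occurs once in each KO group. The study's methods describe fewer KO/PEG mice than there are KO/PEG libraries, so some of the spread between libraries may be technical, and p-values measure only that spread.

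The corpus is normally kept almost free of bacteria by hydrochloric acid, and a stomach that makes no acid can be colonised. The deposited counts and the paper give no measure of bacteria, so colonisation of these mice was not tested. Mucosal epithelia answer microbes in several ways. They secrete proteins that bind or cut the bacterial cell wall (peptidoglycan recognition proteins and lysozymes), proteins that withhold iron (lipocalin and lactoferrin) and antiproteases that protect tissue from neutrophil enzymes. They also release hydrogen peroxide, superoxide or nitric oxide at the surface through dual oxidases, NADPH oxidases and nitric oxide synthase. Dual oxidase needs a partner, the maturation factor, to leave the endoplasmic reticulum. Several of these proteins are also made by neutrophils and macrophages, so their mRNA in a biopsy does not name the cell that made it, and in bulk samples fewer cells of a type and less RNA per cell cannot be told apart.

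The promoter windows of the 3 members that separated every KO from every WT library, Pglyrp1, Duox2 and Duoxa2, are shown because these are the genes the results turn on. Each runs from 250 bases before to 50 bases after the RefSeq start (GRCm38.p6) on the gene's own strand, at chr7:18884440-18884739 (plus), chr2:122298178-122298477 (minus) and chr2:122298650-122298949 (plus). Capitals mark any match on either strand to 6 short motifs.
Pglyrp1: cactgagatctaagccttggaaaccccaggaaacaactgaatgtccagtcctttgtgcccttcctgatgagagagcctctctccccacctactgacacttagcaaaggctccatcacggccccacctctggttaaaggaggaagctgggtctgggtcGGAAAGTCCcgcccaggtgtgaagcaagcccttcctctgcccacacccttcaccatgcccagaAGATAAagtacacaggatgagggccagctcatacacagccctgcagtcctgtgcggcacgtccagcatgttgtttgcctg
Duox2: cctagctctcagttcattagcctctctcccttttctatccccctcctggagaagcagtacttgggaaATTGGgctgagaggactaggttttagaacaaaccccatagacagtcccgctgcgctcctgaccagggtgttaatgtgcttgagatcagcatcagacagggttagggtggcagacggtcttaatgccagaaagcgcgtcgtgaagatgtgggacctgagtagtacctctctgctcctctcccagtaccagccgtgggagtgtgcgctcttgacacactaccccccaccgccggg
Duoxa2: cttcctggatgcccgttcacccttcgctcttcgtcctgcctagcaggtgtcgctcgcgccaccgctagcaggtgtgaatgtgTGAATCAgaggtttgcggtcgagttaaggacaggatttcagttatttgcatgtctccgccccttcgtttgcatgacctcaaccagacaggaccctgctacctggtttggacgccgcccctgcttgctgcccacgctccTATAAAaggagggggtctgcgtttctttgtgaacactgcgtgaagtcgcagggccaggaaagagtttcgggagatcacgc
The motifs were GGANTTTCC (an NF-kB core), TTCNNNGAA (STAT), TGANTCA (AP-1), AGATAA (a site for factors of the GATA family), the promoter element CCAAT and, as the last, the core promoter element TATAAA. GGANTTTCC was found in 1.25% of 32851 promoter windows and among the members only in Pglyrp1, 93 bases before its start. TGANTCA was found in 7.81% of all windows and only in Duoxa2 among the members, where TATAAA (13.6% of windows) also lay 30 bases before the start. AGATAA was found in 11.2% of windows, here in Pglyrp1 and Ltf, and CCAAT in 37.4%, here in Duox2, Ltf and Lyz1. TTCNNNGAA, in 8.3% of windows, was found in none of the 9 members that matched the table. Nos2 had no entry. Such matches describe letters and are not binding sites. Duox2 (chr2:122279247-122298449, minus strand) and Duoxa2 (chr2:122298900-122302885, plus strand) point away from each other with 451 bases between their annotated starts.

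The lysozymes Lyz1 (chr10:117287797-117292868) and Lyz2 (chr10:117277331-117282321), neighbours on the minus strand, are shown together because they differed in level although their sequences are close. The windows are chr10:117292819-117293118 for Lyz1 and chr10:117282223-117282522 for Lyz2, and capitals mark the bases without an identical partner in their alignment.
Lyz1: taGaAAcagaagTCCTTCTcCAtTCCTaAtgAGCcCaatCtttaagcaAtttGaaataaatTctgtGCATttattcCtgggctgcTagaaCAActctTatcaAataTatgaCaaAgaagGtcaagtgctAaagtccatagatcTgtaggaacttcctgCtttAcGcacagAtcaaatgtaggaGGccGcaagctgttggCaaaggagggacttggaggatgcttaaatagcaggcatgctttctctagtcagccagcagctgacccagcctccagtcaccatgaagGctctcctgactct
Lyz2: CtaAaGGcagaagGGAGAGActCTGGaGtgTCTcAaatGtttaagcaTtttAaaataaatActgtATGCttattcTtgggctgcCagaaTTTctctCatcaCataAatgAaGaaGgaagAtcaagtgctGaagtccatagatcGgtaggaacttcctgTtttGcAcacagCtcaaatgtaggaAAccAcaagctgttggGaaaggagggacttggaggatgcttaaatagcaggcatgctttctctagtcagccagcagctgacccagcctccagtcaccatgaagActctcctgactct
The windows were identical at 249 of 298 aligned bases (83.6%) and the transcripts at 1211 of 1262 (96%). Of the 31-base words of the Lyz1 transcript, 34.2% were also in Lyz2, so estimated counts of this pair are less certain than those of the other members.

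In vehicle-treated mice, KO against WT, 8 of the 9 tested members rose in KO/PEG, where 74.6% of all tested genes were called in either direction and 37.5% were called higher. Of the 8, Lcn2 and Nos2 passed the filter on low counts through KO libraries alone, and Lyz1 also needed its KO libraries to pass. The place of these genes in this count therefore partly follows from the filter. The median log2 fold change of the 9 was 3.64, against -0.0029 over all genes tested. Complete separation was seen for Pglyrp1, Duox2 and Duoxa2, whose KO/PEG libraries all lay above all WT/PEG libraries, which held for 5.46% of the genes tested. Adjusted p-values here and in what follows come from the quasi-likelihood test of edgeR, adjusted after Benjamini and Hochberg over all 14901 genes.

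**Figure D1:**
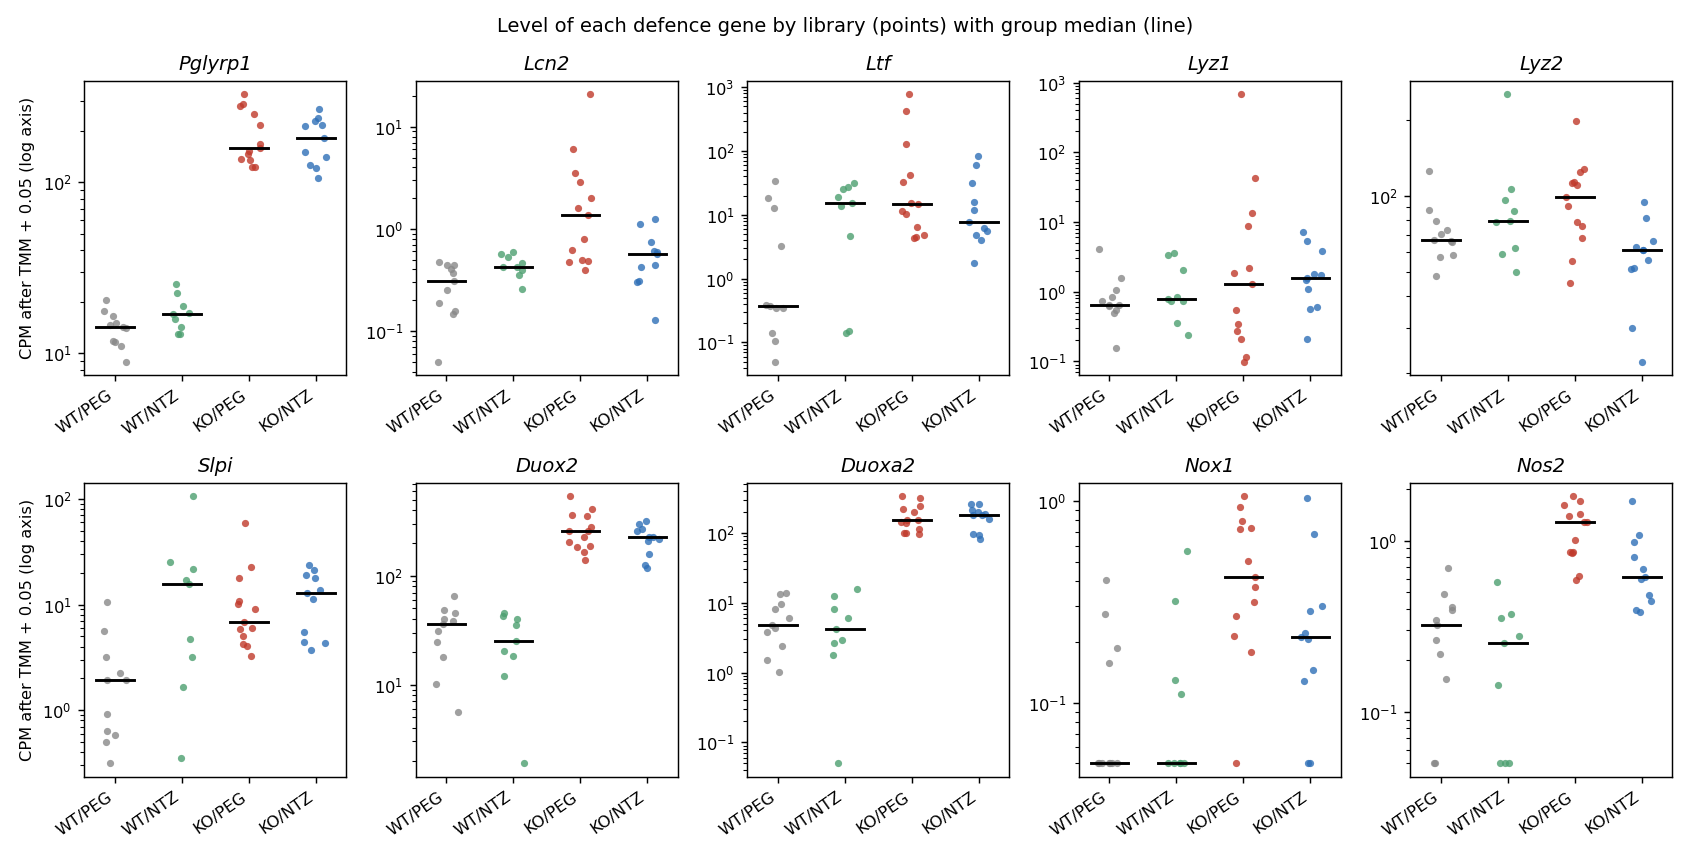
CPM after TMM normalization plus 0.05 on a log axis for each of the 10 genes, with 1 point for each of the 44 libraries and a line at the group median. Pglyrp1, Duox2 and Duoxa2 form 2 separate bands by genotype, Lcn2, Ltf and Lyz1 have a few KO/PEG libraries far above the rest, and Nox1 and Nos2 lie near the lowest detectable level.

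Pglyrp1 (chr7:18871331-18890459, plus strand) encodes a secreted protein that binds bacterial peptidoglycan. Its level ran from 8.85 to 20.4 CPM (median 14.1) in WT/PEG and from 12.9 to 25.2 CPM (median 16.9) in WT/NTZ. It ran from 122.6 to 327.5 CPM (median 158.3) in KO/PEG and from 105.9 to 270.5 CPM (median 182.6) in KO/NTZ. The 24 KO libraries did not overlap the 20 WT libraries, with or without NTZ. Pglyrp1 rose by a log2 fold change of 3.77 ± 0.19 (SE) in KO/PEG over WT/PEG (adjusted p = 7.9e-20) and by 3.38 ± 0.21 in KO/NTZ over WT/NTZ (adjusted p = 6.7e-17). The NTZ comparison within KO gave -0.09 ± 0.17 (adjusted p = 0.758) and that within WT 0.30 ± 0.19 (adjusted p = 0.845), neither beyond the spread between libraries. Both genotype calls of Pglyrp1 were made in each of the 44 fits that left out 1 library, as were those of Duox2, Duoxa2 and Nos2.

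Duox2 encodes a dual oxidase that makes hydrogen peroxide at epithelial surfaces. It ran from 5.55 to 65.0 CPM (median 35.8) in WT/PEG, from 1.84 to 45.7 CPM (median 25) in WT/NTZ, from 139.4 to 538.6 CPM (median 255.7) in KO/PEG and from 118.4 to 315.6 CPM (median 226.1) in KO/NTZ. The highest library was KO/PEG 46, and no KO library reached down to the WT range. Duox2 rose by 3.06 ± 0.34 on the log2 scale in KO/PEG over WT/PEG (adjusted p = 2.3e-10).

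Duoxa2 encodes the maturation factor of that oxidase and rose more. It ran from 0.96 to 13.9 CPM (median 4.69) in WT/PEG, from 0 to 15.9 CPM (median 4.21) in WT/NTZ, from 95.2 to 336.9 CPM (median 152.7) in KO/PEG and from 82.5 to 260.9 CPM (median 182.7) in KO/NTZ. All KO libraries were above all WT libraries here too. The log2 fold change was 4.83 ± 0.43 in KO/PEG over WT/PEG (adjusted p = 1.1e-12). The KO/NTZ over WT/NTZ values were 4.86 ± 0.48 for Duoxa2 (adjusted p = 2.7e-11) and 3.04 ± 0.37 for Duox2 (adjusted p = 4.2e-09). Neither was called for NTZ within KO, with -0.32 ± 0.30 for Duox2 (adjusted p = 0.499) and -0.04 ± 0.35 for Duoxa2 (adjusted p = 0.951). Duoxa2 overlaps Duoxa1 on the other strand. The library kit keeps strand, but the paper does not say whether strand was used in counting. Whether reads from shared sequence add to both genes was not tested. Duoxa1 encodes the maturation factor of dual oxidase 1 and also rose in KO/PEG, from 1.22 ± 0.88 (SD, n = 11) to 20.6 ± 7.10 CPM (SD, n = 13), a log2 fold change of 4.11 ± 0.38 (adjusted p = 2.5e-12).

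Nox1 and Nos2 make superoxide and nitric oxide, and both were near the lowest detectable level. Nox1 (chrX:134086421-134221956, minus strand) was at 0 counts in 7 of 11 WT/PEG and 5 of 9 WT/NTZ libraries. It reached at most 0.357 CPM in WT/PEG, 0.511 CPM in WT/NTZ, 1.005 CPM in KO/PEG (median 0.367) and 0.979 CPM in KO/NTZ (median 0.161). It had 3 counts or more in 9 of 13 KO/PEG libraries and 2 of 11 WT/PEG libraries. With no filter on low counts Nox1 was tested and gave a log2 fold change of 2.44 ± 0.66 in KO/PEG over WT/PEG (adjusted p = 0.0017).

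Nos2 (chr11:78920787-78960254, plus strand) ran from 0 to 0.646 CPM (median 0.272) in WT/PEG, from 0 to 0.52 CPM (median 0.204) in WT/NTZ, from 0.54 to 1.77 CPM (median 1.24) in KO/PEG and from 0.331 to 1.65 CPM (median 0.562) in KO/NTZ. The KO/PEG libraries were above all WT/PEG libraries in 11 of 13 cases. Nos2 rose by 2.03 ± 0.38 in KO/PEG over WT/PEG (adjusted p = 8.4e-06) and by 1.80 ± 0.45 in KO/NTZ over WT/NTZ (adjusted p = 0.00047). The counts behind these values were small, at most 12 in a WT and 47 in a KO library, so that Nos2 passed the filter through its KO libraries alone.

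Lcn2 (chr2:32384633-32388252, minus strand) encodes lipocalin 2, which binds the siderophores with which bacteria take up iron. It was low in most libraries, with 0 to 0.422 CPM (median 0.256) in WT/PEG, 0.204 to 0.538 CPM (median 0.372) in WT/NTZ, 0.344 to 20.7 CPM (median 1.31) in KO/PEG and 0.0784 to 1.21 CPM (median 0.52) in KO/NTZ. The KO/PEG group was spread widely: libraries 46, 31 and KO_109 had 20.7, 6.03 and 3.51 CPM, while the lowest had 0.344 CPM. In 12 of 13 KO/PEG libraries Lcn2 exceeded its highest WT/PEG level. In KO/PEG 53, KO_137 and KO_143 it did so narrowly, with 0.428, 0.438 and 0.449 CPM (7, 6 and 7 counts). These levels were under the highest in WT/NTZ. Lcn2 rose by 3.64 ± 0.59 on the log2 scale in KO/PEG over WT/PEG (adjusted p = 8.1e-07). It fell by 2.57 ± 0.54 in KO/NTZ relative to KO/PEG (adjusted p = 0.0023), with each of the 11 KO/NTZ levels under the median of KO/PEG. KO/NTZ over WT/NTZ gave 0.41 ± 0.65 (adjusted p = 0.575). No WT library had more than 7 counts of Lcn2, so that it passed the filter through KO libraries alone. It was tested in 35 of the 44 fits that left out 1 library. Without library 46 Lcn2 no longer passed the filter, and with no filter it gave 2.75 for KO/PEG over WT/PEG (adjusted p = 1.3e-06) and -1.66 for NTZ within KO (adjusted p = 0.0171).

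Ltf (chr9:111019271-111042767, plus strand) encodes lactoferrin, an iron-binding protein of secretions and neutrophil granules. It ran from 0 to 33.8 CPM (median 0.32) in WT/PEG, from 0.0929 to 32.1 CPM (median 15.4) in WT/NTZ, from 4.32 to 773.6 CPM (median 14.7) in KO/PEG and from 1.73 to 83.5 CPM (median 7.73) in KO/NTZ. Library 46 was highest with 773.6 CPM, followed by KO/PEG 31 with 420.3 and KO/PEG KO_109 with 127.5 CPM. All groups overlapped. Ltf rose by 4.22 ± 1.04 in KO/PEG over WT/PEG (adjusted p = 0.00039), and gave -2.40 ± 0.93 for NTZ within KO (adjusted p = 0.108) and 0.48 ± 0.98 in KO/NTZ over WT/NTZ (adjusted p = 0.667). Without library 46 they were 3.26 for genotype (adjusted p = 0.0021) and -1.44 for NTZ within KO (adjusted p = 0.323). Among libraries with animal numbers of 100 or above, the class of the labels that holds all WT/PEG mice, the genotype value was 2.26 (adjusted p = 0.0554).

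Squamous keratins moved with Ltf. In the WT groups Ltf was at 0 to 3.20 CPM (median 0.102) in the 9 libraries with at most 2 CPM of Krt5 and Krt14, and at 0.292 to 33.8 CPM (median 18.04) in the 11 above it. In the KO groups it was at 1.73 to 773.6 CPM (median 6.47) in 17 libraries and at 11.9 to 420.3 CPM (median 61.0) in the 7 above. Library 46 had 0.203 CPM of the keratins, so the highest Ltf level was not in a library with squamous keratins. With the keratins as a covariate, a fit added after the data were seen, Ltf fell by 4.10 with NTZ within KO (adjusted p = 0.0013) and rose by 2.11 in KO/NTZ over WT/NTZ (adjusted p = 0.0314). Without the 18 libraries that held the keratins the values were -4.11 (adjusted p = 0.112) and 5.51 (adjusted p = 0.184), neither called. Library 46 was in both fits, and neither was repeated without it. Among libraries with at most 2 CPM of the keratins the Ltf median was 11.6 CPM in KO/PEG and 5.18 CPM in KO/NTZ.

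Slpi (chr2:164354070-164389095, minus strand) encodes a secreted inhibitor of leukocyte proteases that is common in squamous and glandular secretions. It ran from 0.264 to 10.6 CPM (median 1.90) in WT/PEG, from 0.307 to 106.4 CPM (median 15.6) in WT/NTZ, from 3.20 to 58.7 CPM (median 6.81) in KO/PEG and from 3.69 to 23.6 CPM (median 12.9) in KO/NTZ. The highest library was WT/NTZ WT_117, followed by KO/PEG KO_109, and both held squamous keratins. Slpi rose by 2.37 ± 0.64 in KO/PEG over WT/PEG (adjusted p = 0.001), and gave -0.02 ± 0.56 for NTZ within KO (adjusted p = 0.987) and -0.81 ± 0.61 in KO/NTZ over WT/NTZ (adjusted p = 0.229). Among WT mice, Slpi was the only member called between NTZ and vehicle, with a rise of 3.16 ± 0.68 (adjusted p = 0.0096), where 1.03% of all genes were called higher.

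That rise of Slpi in WT/NTZ moved with the keratins. The 9 WT libraries with at most 2 CPM of Krt5 and Krt14 had 0.264 to 3.16 CPM of Slpi, and the 11 above it 1.598 to 106.4 CPM, while 7 of the 9 WT/NTZ and 4 of the 11 WT/PEG libraries were of the second kind. The summed level of all 15 squamous markers ran from 4.25 to 1062 CPM in WT/PEG and from 5.11 to 6029 CPM in WT/NTZ, and 0 of the 14 tested passed between these groups. The call was lost with the keratins as a covariate (1.77, adjusted p = 0.458), without the 18 libraries that held them (0.86, adjusted p = 1, with 2 WT/NTZ libraries left) and without WT/NTZ WT_117 alone (2.22, adjusted p = 0.0942). Without those 18 libraries the genotype difference in the NTZ groups was 2.72 for Slpi (adjusted p = 0.0177), against -0.81 with them. The rise of Slpi in KO/PEG over WT/PEG was called in each of the 44 fits that left out 1 library.

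**Figure D2:**
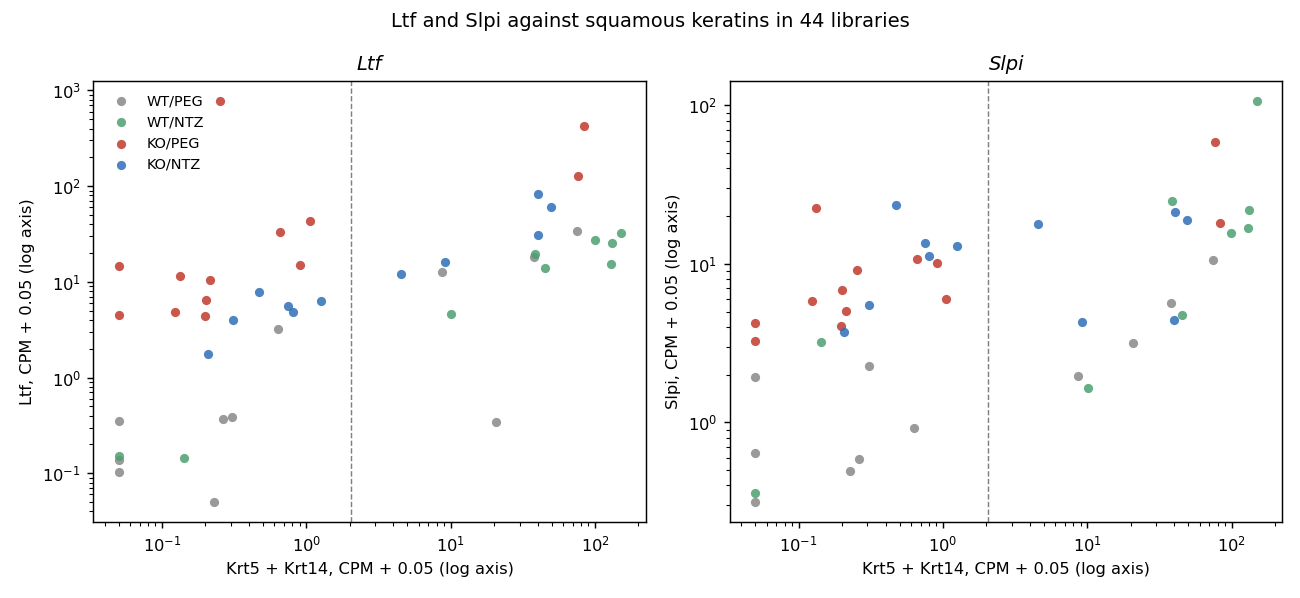
Ltf (left) and Slpi (right) against the sum of Krt5 and Krt14, all as CPM plus 0.05 on log axes, with 1 point for each of the 44 libraries coloured by group and a dashed line at 2 CPM of keratins. WT libraries right of the line reach 33.8 CPM of Ltf and 106.4 CPM of Slpi, those left of it at most 3.20 and 3.16 CPM, and the red point at the top left of the Ltf panel is KO/PEG 46.

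Lyz1 encodes the lysozyme best known from Paneth cells of the intestine. In most libraries it was low, with 0.107 to 4.11 CPM (median 0.597) in WT/PEG, 0.186 to 3.53 CPM (median 0.728) in WT/NTZ, 0.0491 to 679.5 CPM (median 1.22) in KO/PEG and 0.157 to 7.23 CPM (median 1.497) in KO/NTZ. Library 46 held 679.5 CPM, 15.6 times the next KO/PEG library, number 45 with 43.5 CPM. In KO/PEG 4 of 13 libraries exceeded the highest WT/PEG level of Lyz1 and 6 lay under the WT/PEG median. The fitted log2 fold change was 5.84 ± 1.19 in KO/PEG over WT/PEG (adjusted p = 3.4e-05), and 2.59 without library 46 (adjusted p = 0.0034). NTZ within KO gave -4.63 ± 1.08 (adjusted p = 0.0065), and -1.39 without library 46 (adjusted p = 0.27). The medians went the other way, 1.22 CPM in KO/PEG and 1.497 CPM in KO/NTZ, so that the fall of Lyz1 with NTZ rested on 1 library. In limma-trend, which works on log values, Lyz1 gave 1.32 for genotype (adjusted p = 0.152) and -0.43 for NTZ (adjusted p = 0.757).

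Paneth cell markers were measured beside Lyz1. Of 16 Paneth cell markers, 13 stayed under 1 CPM in every library, 8 of them at 0 throughout, and all 12 defensins listed were among the 13. Itln1, an intelectin that the intestine also makes in goblet cells, was the only marker that passed the filter. It rose by 7.25 ± 0.90 in KO/PEG over WT/PEG (adjusted p = 4e-09), from 4.14 ± 4.69 (SD, n = 11) to 644.8 ± 873.3 CPM (SD, n = 13), but had 11.8 CPM in library 46, where Lyz1 was highest.

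Lyz2, the lysozyme typical of macrophages and other myeloid cells, was the only member at a high level in every group. It ran from 48.2 to 125.6 CPM (median 66.9) in WT/PEG, from 49.9 to 252.0 CPM (median 79.2) in WT/NTZ, from 45.2 to 197.1 CPM (median 99.2) in KO/PEG and from 22.1 to 94.8 CPM (median 60.8) in KO/NTZ. All groups overlapped, and library 46 had 128.1 CPM of Lyz2, within the range of its group. KO/PEG over WT/PEG gave 0.46 ± 0.22 (adjusted p = 0.0619), the only tested member not called there. NTZ within KO gave a log2 fold change of -0.78 ± 0.23 for Lyz2 (adjusted p = 0.0312), with each of the 11 levels in KO/NTZ under the median of KO/PEG. KO/NTZ was also lower than WT/NTZ by -0.73 ± 0.24 (adjusted p = 0.0072). The first of these calls was lost without any of 4 libraries (KO/PEG 52, KO/NTZ 29, 30 or 37, adjusted p up to 0.0753) and the second without WT/NTZ WT_118 (-0.42, adjusted p = 0.0829).

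Macrophage markers were measured beside Lyz2. All 14 passed the filter, and 10 rose and 0 fell in KO/PEG over WT/PEG, with a median log2 fold change of 0.81. Of all tested genes 37.5% were called higher there. For NTZ within KO 0 of the 14 markers passed by edgeR's quasi-likelihood test (median -0.31) and 2 did by DESeq2, both lower. Their sum ran from 70.6 to 175.6 CPM in WT/PEG, 84.9 to 337.5 in WT/NTZ, 148.2 to 335.9 in KO/PEG and 142.0 to 251.1 in KO/NTZ. C1qa, a complement subunit of tissue macrophages, rose from 16.1 ± 4.83 (SD, n = 11) to 49.97 ± 21.4 CPM (SD, n = 13), a log2 fold change of 1.63 ± 0.22 (adjusted p = 2.1e-08). Their part in the Lyz2 values was not tested.

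**Figure D3:**
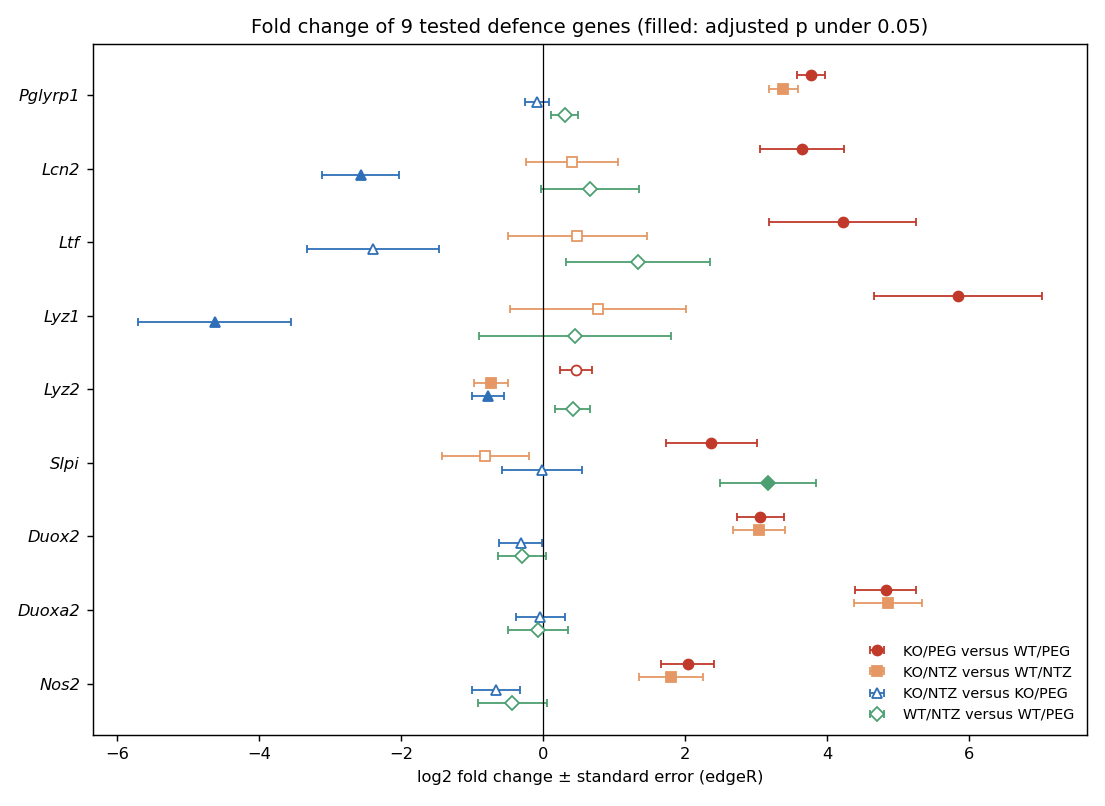
Log2 fold change with its standard error from the edgeR fit of all 44 libraries for the 9 tested genes, with a marker shape and colour for each of 4 comparisons and filled markers where the adjusted p was under 0.05. Both genotype comparisons lie near each other for Pglyrp1, Duox2, Duoxa2 and Nos2, whereas Lcn2, Ltf and Lyz1 have wide errors and passed as higher in KO/PEG versus WT/PEG.

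Over the members together, NTZ lowered 3 of 9 in KO mice (Lcn2, Lyz1 and Lyz2) and raised 0, where 5.58% of all tested genes were called and 2.6% were called lower. Without library 46 the call of Lyz1 was lost and Lcn2 was not tested, which left 1 of 8, Lyz2, and none of the 3 was called without the 18 libraries with squamous keratins, a fit of 11 KO/PEG against 6 KO/NTZ libraries in which 134 genes were called. The fold changes were of similar or larger size in that fit, with -2.56 for Lcn2 (adjusted p = 0.202), -6.18 for Lyz1 (adjusted p = 0.131) and -0.87 for Lyz2 (adjusted p = 0.154). Library 46, which is low in keratins, was still in that fit. Among its KO libraries the medians, KO/PEG first, were 0.743 and 0.533 CPM for Lcn2 and 91.0 and 62.0 CPM for Lyz2. For Lyz1 they were 0.491 and 0.798 CPM and so went the other way. Between KO/NTZ and WT/NTZ, 4 of 9 rose and 1 fell, where 72.4% of all genes were called, 35.6% higher and 36.8% lower. The 4 were Pglyrp1, Duox2, Duoxa2 and Nos2, and for the first 3 every KO/NTZ library lay above every WT/NTZ library, which held for 14.4% of all genes. The comparisons share groups, so these counts are not independent of each other.

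Whether NTZ acted differently in the genotypes was tested as the difference between both NTZ effects. By edgeR's quasi-likelihood test 0 of 9 members passed, where 0.96% of all genes did. At an unadjusted p under 0.05 in that test, 5 members and 1736 of all 14901 genes passed. The 5 were Lcn2 (-3.23 ± 0.88, adjusted p = 0.0577), Slpi (-3.18 ± 0.88, adjusted p = 0.0631), Lyz2 (-1.19 ± 0.33, adjusted p = 0.0648), Lyz1 (-5.08 ± 1.70, adjusted p = 0.145) and Ltf (-3.74 ± 1.37, adjusted p = 0.202). DESeq2's Wald test called 3 of them, Lcn2 (-3.30, adjusted p = 0.0118), Slpi (-3.14, adjusted p = 0.0247) and Lyz2 (-1.23, adjusted p = 0.0196), and 274 of all 14901 genes. The call of this difference thus depended on the tool. For Pglyrp1 the difference was -0.39 ± 0.25, for Duox2 -0.02 ± 0.46, for Duoxa2 0.03 ± 0.55 and for Nos2 -0.24 ± 0.64.

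Per transcript length, in TPM, the order of the members changed with genotype. In WT/PEG the median TPM was highest for Lyz2 (60.7), followed by Pglyrp1 (23.03), Duox2 (6.87), Duoxa2 (3.21) and Slpi (2.57), with all others under 0.6. In KO/PEG it was highest for Pglyrp1 (341.1), followed by Duoxa2 (142.5), Lyz2 (86.8), Duox2 (48.0), Ltf (19.4) and Slpi (14.3). KO/NTZ had the same first 4, with 321.3 for Pglyrp1, 130.9 for Duoxa2, 55.6 for Lyz2 and 50.6 for Duox2, and Lyz2 and Duox2 overlapped in both KO groups. Pglyrp1 had the highest TPM of the 10 in 11 of 13 KO/PEG libraries, Ltf in the other two, and Pglyrp1 in all 11 KO/NTZ libraries. By median TPM the maturation factor Duoxa2 was higher than its oxidase in KO/PEG and lower in WT/PEG, but not in every library. Duoxa2 was the lower in KO/PEG 46 (178.2 against 182.1 TPM). It was the higher in WT/PEG WT_149 (4.86 against 4.14 TPM) and WT_150 (8.56 against 8.34 TPM).

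Within groups, members were compared pair by pair over libraries, with 108 relations in all (36 pairs of members and 18 relations of a member with the summed neutrophil or macrophage markers, in each KO group). By Pearson's r of log2 CPM, 2 relations passed a permutation test with adjustment over all 108. Lcn2 and Ltf rose and fell together over the 13 KO/PEG libraries (r = 0.94, permutation p = 1e-05, the smallest this test can give, adjusted p = 0.0011, rho = 0.852, adjusted permutation p = 0.0189). Without libraries 46 and 31 r was 0.856 (adjusted permutation p = 0.0186), and within the classes of animal number it was 0.941 over 6 libraries and 0.934 over 7. Ltf and Lyz1 went together over the 11 KO/NTZ libraries (r = 0.904, permutation p = 0.00012, adjusted p = 0.0065, rho = 0.845, adjusted permutation p = 0.0331), and without libraries 110 and 27 r was 0.858 (adjusted permutation p = 0.083), which was close in size and no longer passed with 9 libraries. Squamous keratins moved with both genes in KO/NTZ: Ltf ran from 11.9 to 83.5 CPM in the 5 libraries above 2 CPM of keratins and from 1.73 to 7.73 CPM in the 6 others, and Lyz1 from 1.497 to 7.23 CPM (median 3.76) and from 0.157 to 1.70 CPM (median 0.798). The part of the keratins in this relation was not tested. Of these 11 libraries 10 have an animal number under 100, with r = 0.865 among them. In KO/PEG Ltf and Lyz1 gave r = 0.775 (adjusted permutation p = 0.0661) and rho = 0.841 (adjusted permutation p = 0.0189), with r = 0.665 over 6 and 0.881 over 7 libraries within the number classes. Duoxa2 and Slpi in KO/PEG gave r = 0.737 (adjusted permutation p = 0.0661) and rho = 0.797 (adjusted permutation p = 0.0331), with r = 0.653 without the 2 libraries farthest from the median (adjusted permutation p = 0.199), and 0.115 over 6 and 0.932 over 7 libraries within the number classes.

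**Figure D4:**
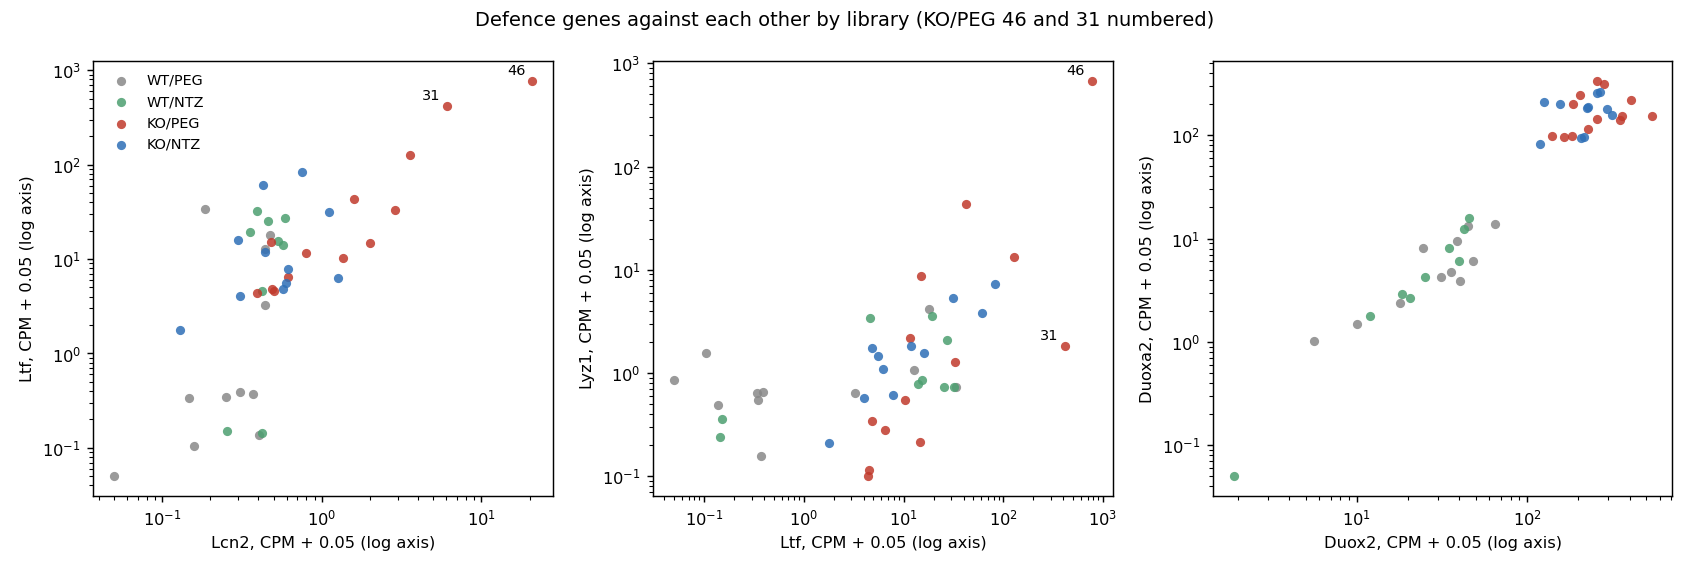
Lcn2 with Ltf, Ltf with Lyz1, and Duox2 with Duoxa2, each as CPM plus 0.05 on log axes with 1 point for each of the 44 libraries coloured by group. KO/PEG libraries 46 and 31 are numbered and lie at the top right of the left panel, where Ltf is 773.6 and 420.3 CPM, and in the right panel all KO libraries lie in a cloud apart from the WT libraries.

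Neutrophil markers were set beside the members in the same way. Ltf and Lyz1 gave rho = 0.846 and 0.841 with the sum of 18 neutrophil markers over the 13 KO/PEG libraries (adjusted permutation p = 0.0189 for both), but Pearson's r was 0.736 and 0.714 (adjusted permutation p = 0.0791 and 0.0906). Within the number classes r was 0.597 and 0.908 for Ltf, and 0.578 and 0.933 for Lyz1, over 6 and 7 libraries, and without the 2 libraries farthest from the median it was 0.89 for Ltf (adjusted permutation p = 0.0119) and 0.784 for Lyz1 (adjusted permutation p = 0.0693). Of the 18 markers 10 stayed under 1 CPM in every library, among them the granule genes Mpo, Elane, Ctsg, Prtn3, Camp and Ngp and the surface marker Ly6g, and none was at 0 in all. The sum ran from 3.20 to 7.07 CPM in WT/PEG, 2.97 to 26.4 in WT/NTZ, 4.81 to 38.5 in KO/PEG and 6.29 to 14.0 in KO/NTZ. Library 46, with the highest Ltf, had 16.1 CPM, and KO/PEG KO_109 the highest sum. Of the 6 markers that passed the filter 5 rose in KO/PEG over WT/PEG, where 37.5% of all tested genes were called higher. Among the 5 was Mmp9, a metalloproteinase of neutrophil granules that other cells also make (log2 fold change 2.76 ± 0.48, adjusted p = 3.1e-06). Their part in the Ltf and Lyz1 values was not tested.

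The genes whose pattern was most like that of each member were taken over the 24 KO libraries after the mean of each group was subtracted, as a description. For Pglyrp1 these were Gm21972 (r = 0.939) and Atp13a1 (r = 0.93), for Lcn2 Rasgrp2 (0.822) and Tnfaip2 (0.779), for Ltf Slc28a3 (0.83) and the chemokine Cxcl5 (0.81), and for Lyz1 Lbp, which binds bacterial lipopolysaccharide (0.871), and complement factor Cfb (0.87). For Lyz2 they were Sla (0.832) and Rftn1 (0.812), for Duox2 Stx16 (0.806) and Ehf (0.802), for Duoxa2 its overlapping neighbour Duoxa1 (0.88) and Litaf (0.839), for Nos2 Gas2 (0.616) and Prkar2b (0.609) and for Slpi Iglc3 (0.885) and Fetub (0.835).

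Other antimicrobial proteins were counted from a list of 32, of which 16 passed the filter. Some genes are in more than 1 list, so the list counts are not independent of each other. Itln1 is also a listed Paneth cell marker and S100a9 a listed neutrophil marker. All 16 rose in KO/PEG over WT/PEG, with a median log2 fold change of 5.04, where 37.5% of all tested genes were called higher. In KO/NTZ over WT/NTZ 12 rose and 1 fell, where 35.6% of all tested genes were called higher and 36.8% lower. A gene that is low in WT can pass the filter through its KO libraries, which favours rises in this count. Wfdc15b, for example, had means of 0.249 CPM in WT/PEG and 11.6 CPM in KO/PEG. Wfdc2, a whey acidic protein of mucous epithelia like Slpi, rose from 22.7 ± 11.3 (SD, n = 11) to 1103 ± 784.9 CPM (SD, n = 13), by 5.601 ± 0.41 (adjusted p = 4.2e-15), and Wfdc15b, of the same family, by 5.503 ± 0.42 (adjusted p = 1.2e-14). Spink4, a protease inhibitor, rose by 5.08 ± 0.39 (adjusted p = 1.5e-14). Reg3g, a lectin that kills Gram-positive bacteria, rose by 7.74 ± 0.75 (adjusted p = 1.1e-11), from 0.184 ± 0.189 to 45.8 ± 67.6 CPM (SD), with 257.7 CPM in library 46. Within KO, NTZ lowered 4 of the 16 and raised 0, where 2.6% of all tested genes were called lower. The log2 fold change was -2.90 ± 0.55 for Saa3, an acute phase protein (adjusted p = 0.00076), -2.98 ± 0.58 for Reg3b, a lectin related to Reg3g (adjusted p = 0.0011), and -2.12 ± 0.50 for Reg3g (adjusted p = 0.0066). Ccl28, a mucosal chemokine with antimicrobial activity, was the fourth, with -0.74 (adjusted p = 0.0097). Without library 46 the values were -2.10 for Reg3b (adjusted p = 0.0075) and -1.41 for Reg3g (adjusted p = 0.0376), and 3 of 15 were called. Saa3 no longer passed the filter there, so its call was not tested without library 46. Without the 18 libraries with squamous keratins none of the 16 was called, with values of similar size, -2.80 for Reg3b (adjusted p = 0.0765), -2.35 for Saa3 (adjusted p = 0.117) and -1.81 for Reg3g (adjusted p = 0.224). Library 46 was still in that fit.

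Other oxidase genes were counted from a list of 18. Of these subunits, maturation factors and peroxidases 13 were tested, and 9 rose and 1 fell in KO/PEG over WT/PEG (median 1.25). Of all tested genes 37.5% were called higher there. The 9 included the partners that Nox1 needs. Noxo1 rose by 2.91 ± 0.24 (adjusted p = 1.2e-13), Noxa1 by 1.43 ± 0.13 (adjusted p = 4.4e-12) and Cyba, the membrane partner of several NADPH oxidases, by 2.69 ± 0.25 (adjusted p = 4.9e-12). Nos1, the neuronal nitric oxide synthase, was the one that fell, by 2.33 ± 0.22 (adjusted p = 9.3e-12). Within KO only Nos1 of the 13 passed for NTZ, where 5.58% of all tested genes were called. Nos1 rose by 0.73 ± 0.23 (adjusted p = 0.0465), a call that was lost without library 46 (0.75, adjusted p = 0.0513).

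Receptors of microbial products and cytokine signals were counted from a list of 38, of which 29 were tested. In KO/PEG over WT/PEG 21 rose and 5 fell, with a median of 0.74. Of all tested genes 74.6% were called in that comparison, and 37.5% were called higher. Cd14, a receptor for lipopolysaccharide, rose by 3.33 ± 0.20 (adjusted p = 1.2e-17), from 2.84 ± 0.71 (SD, n = 11) to 28.5 ± 8.07 CPM (SD, n = 13). Tlr2 and Tlr1, which together recognise bacterial lipoproteins, rose by 3.57 ± 0.35 (adjusted p = 1.4e-11) and 1.30 ± 0.13 (adjusted p = 1.1e-11), whereas Il17re, an interleukin 17 receptor subunit, fell by 0.79 ± 0.08 (adjusted p = 1e-11). NTZ within KO lowered 4 and raised 0 of the 29, where 2.6% of all tested genes were called lower. The values were -2.49 ± 0.38 for Il1a (adjusted p = 4e-05), -1.18 ± 0.26 for Nfkbiz, a regulator induced by inflammatory cytokines (adjusted p = 0.0038), and -1.06 ± 0.32 for Il1b (adjusted p = 0.0369). The fourth was Nod2, a sensor of muramyl dipeptide, with -0.86 (adjusted p = 0.0485). Without the libraries with squamous keratins 1 of the 29 was called, Il1a (-2.49, adjusted p = 0.0256), while Nfkbiz gave -1.15 (adjusted p = 0.143) and Il1b -0.96 (adjusted p = 0.268), close to their values in all libraries. Library 46 was kept in that fit too. By edgeR's quasi-likelihood test 0 genes of these 3 lists passed for NTZ within WT, and by DESeq2 1 antimicrobial and 1 sensing gene did, both higher.

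**Figure D5:**
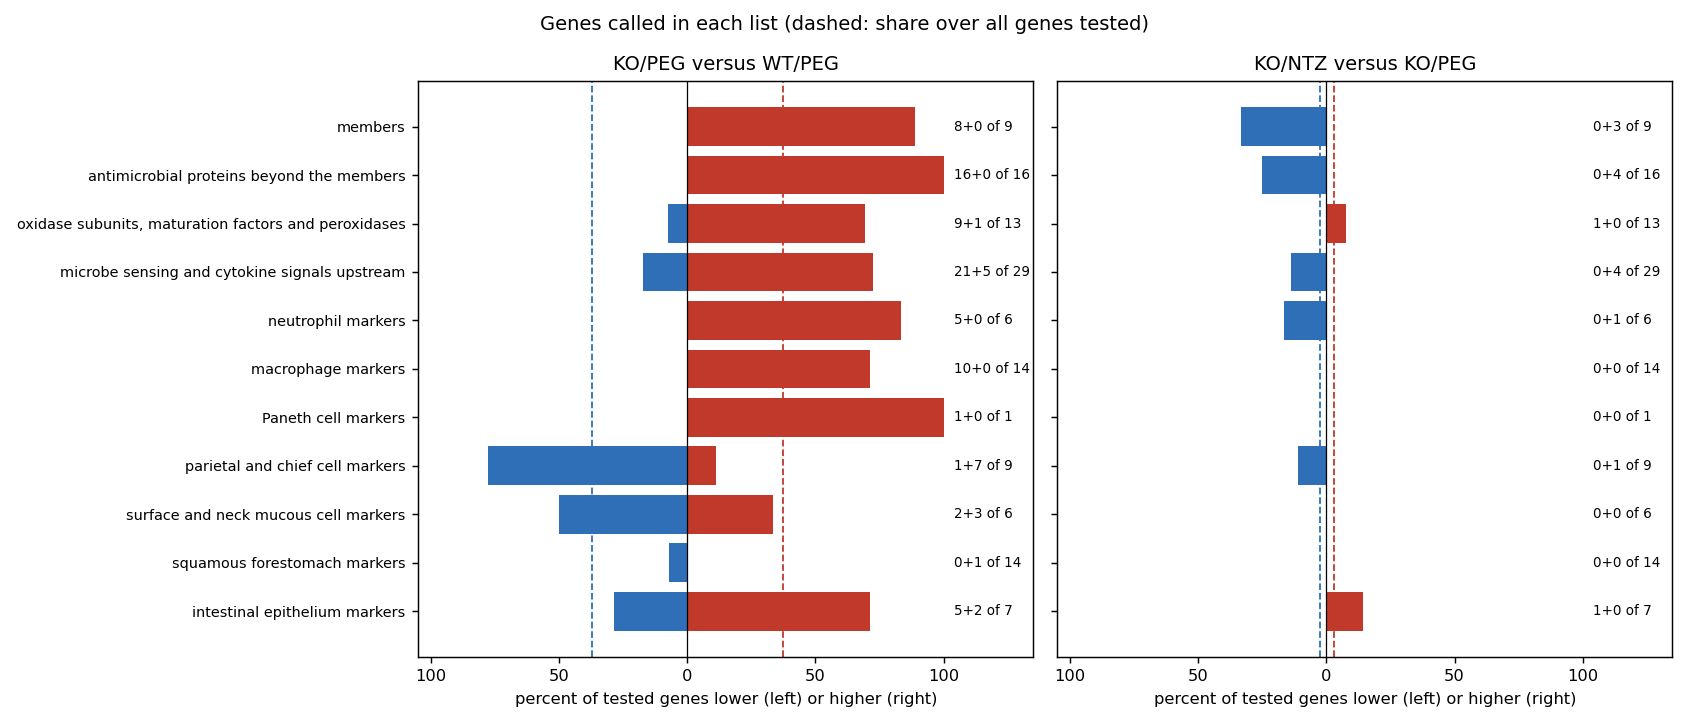
Percentage of the tested genes of each list that were called higher (red, to the right) or lower (blue, to the left) in KO/PEG over WT/PEG and in KO/NTZ over KO/PEG, with the counts at the right (higher plus lower of tested) and dashed lines at the share over all genes tested. Among the 16 antimicrobial proteins 16 are higher with genotype and 4 lower with NTZ, and the squamous markers show 1 call of 14 with genotype.

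Cell type markers changed with genotype as well, where 74.6% of all tested genes were called and 37.5% were called higher. Of 9 tested parietal and chief cell markers 7 fell and 1 rose in KO/PEG, such as Pgc, the chief cell pepsinogen C, with -3.93 ± 0.40 on the log2 scale (adjusted p = 4.4e-11) and Slc26a7, a parietal cell chloride transporter, with -3.50 ± 0.30 (adjusted p = 4.8e-13). Among the 6 mucous cell markers Tff2 and Muc6 of neck and gland mucous cells rose by 3.75 ± 0.42 (adjusted p = 3.7e-10) and 3.87 ± 0.46 (adjusted p = 1.4e-09), and 3 fell, among them Gkn1 of surface cells with -1.31 ± 0.21 (adjusted p = 6.5e-07). Of 7 intestinal markers 5 rose and 2 fell, with Lgals4 higher by 3.01 ± 0.21 (adjusted p = 5.9e-16) and Vil1 by 2.81 ± 0.25 (adjusted p = 8.9e-13). The share of the members' rise that goes with these changes of cell types cannot be told apart from a change within cells in these biopsies.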

How the data were processed

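RNA from biopsies of ventral corpus mucosa was sequenced with a stranded mRNA kit in 44 libraries. The authors pseudoaligned reads to GRCm38 with kallisto 0.42.4 and deposited estimated counts per transcript. Of 94080 transcripts 92372 were paired with a gene name (GENCODE vM21), and the others held 0.329% to 1.3% of a library. The estimated counts were summed per gene and rounded. The members and lists were chosen with earlier results of these data known. Genes were filtered with filterByExpr (minimum count 10), normalized by TMM and fitted in 1 model of 44 libraries with edgeR 4.0.16 in R 4.3.3 (robust quasi-likelihood, 14901 genes, threshold 0.05). Alternatives used limma 3.58.1 and DESeq2 1.42.0, other scalings and filters, animal number classes, top transcripts and libraries left out. Correlations used 100000 two-sided permutations. Named list genes were, per list, up to 4 called genes with the lowest p in KO/PEG over WT/PEG and up to 3 in each NTZ comparison, while Ccl28, Nod2 and the fall of Nos1 were added after their values were seen. The scripts were tested on simulated data. The sleuth analysis of the study was not repeated. No pair of libraries agreed within sampling noise, both WT_172 libraries included.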

Additional observations from a re-analysis of the deposited data

Results flagged for a closer look

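Among the WT/NTZ libraries, Slpi and Lyz2 each had 1 library far above the others. For Slpi, library WT_117 held 106.4 CPM and the next 25.05 CPM, a gap of 0.767 of the range of the group. For Lyz2, library WT_118 held 252 CPM and the next 106.1 CPM, a gap of 0.722 of the range. The limit for 9 samples is 0.493, and for normally distributed values chance passes it in about 1 of 20 groups. The values were CPM and not log values, so that rate need not hold here. Of 10 groups of values tested, 2 were flagged. WT/NTZ alone has 9 libraries, and the larger groups were not screened in this way. High libraries there could not be flagged, such as the highest of Lyz1 in KO/PEG (679.5 CPM, the next 43.49 CPM).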

How the results depend on the processing

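No paired analysis was possible because the groups compared share fewer than 2 animal numbers. Of 712 values of a member under an alternative, 642 kept direction and side of the threshold, 23 lost a call, 14 gained one and 33 changed sign. Alternatives on squamous keratins and on library 46 were chosen after seeing the data, and the cause of the changes was not tested. The fits without squamous libraries and with keratins as covariate still held library 46. Members called in KO/PEG over WT/PEG were 8, but 5 at a minimum count of 50 and 4 within 1 number class, with 6 tested in each, 9 with library totals, DESeq2 and keratins as covariate, where Lyz2 was gained, and 7 to 9 with 1 library left out. For NTZ in KO they were 3, but 1 at a minimum count of 50, with top transcripts, without both libraries numbered 110 and without library 46 (with or without the filter), 0 with only the groups compared and 0 without squamous libraries, where the fold changes were of similar or larger size, 2 with DESeq2, 4 with keratins as covariate, where Ltf was gained, and 1 to 3 with 1 library left out. For NTZ in WT the 1 call became 0 with limma, with only the groups compared, without squamous libraries and with keratins as covariate, 2 within 1 class, and 0 to 1 with 1 library left out. KO/NTZ over WT/NTZ went from 5 to 3 within 1 class and 6 with keratins as covariate, to 4 to 5 with 1 library left out, and without squamous libraries it stayed at 5 with Slpi gained and Lyz2 lost (-0.25, adjusted p = 0.645). The alternatives not named gave 6 to 9, 2 to 3 and 4 to 5 calls in these comparisons with KO mice. The difference of NTZ effects went from 0 to 2 with library totals and 3 with DESeq2, and 0 to 3 with 1 library left out. Library totals moved the median of all genes in KO/PEG over WT/PEG to 0.29, with 71.05% of calls higher against 50.21%, and Lyz2 was then called (0.76, adjusted p = 0.0084).

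Sign changes on the log2 scale were as follows. For NTZ in KO, Duoxa2 gave 0.0701 with the class as covariate and 0.092 without squamous libraries, Pglyrp1 0.0777 and 0.0544 with the class as covariate and within 1 class, and Slpi 0.24 with limma, 0.0559 without the libraries numbered 110, 0.71 and 0.50 with and within class and 0.55 without squamous libraries. For NTZ in WT, Duoxa2 gave 0.0605 and 0.32 with and within class, Ltf -2.44 without squamous libraries and -0.22 with the covariate, Lyz1 -0.59 with class and -1.48 without squamous libraries, and Lyz2 -0.0864 and Pglyrp1 -0.0354 without them. For KO/NTZ over WT/NTZ, Ltf gave -0.012 without the libraries numbered 110, both lysozymes summed -0.70, and Slpi 0.31 with limma, 0.25 and 1.39 with and within class, 2.72 without squamous libraries and 0.97 with the covariate. For the difference, Duox2 gave 0.14 with limma, 0.0117 with both WT_172 libraries summed, 0.0244 with class, 0.61 without squamous libraries and 0.10 and 0.0897 without library 46, Duoxa2 -0.0811 with library totals and -0.00706 with DESeq2, and Nos2 2.06 without squamous libraries. At this depth Nox1 was below the filter, and Nos2 and Lcn2 rest on few counts.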

Other observations

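The relation of Duox2 to Duoxa2 was examined in each group after the values were seen. In WT/PEG the correlation of log2 CPM was r = 0.884 over 11 libraries (permutation p = 0.0002, adjusted over the 4 groups 0.0004, rho = 0.791, adjusted permutation p = 0.0107), and r = 0.682 without the 2 libraries farthest from the median. In WT/NTZ it was r = 0.985 over 9 libraries (exact permutation p = 2.2e-05, adjusted 8.82e-05, rho = 0.967, adjusted exact p = 0.000661), and 0.938 without 2. In KO/PEG it was r = 0.332 over 13 libraries (permutation p = 0.267, adjusted 0.335, rho = 0.467), with 0.676 over 7 libraries with a number of 100 or above and 0.0401 over 6 below. In KO/NTZ it was r = 0.324 over 11 libraries (permutation p = 0.335, adjusted 0.335, rho = 0.255). Whether the groups differ in this relation was not tested.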
